A study of Homo sapiens with 10 samples.

Results

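The AP-1 and immediate early factors examined here are 10 genes, JUN, JUNB, JUND, FOS, FOSB, FOSL1, FOSL2, ATF3, EGR1 and IER2. They were taken at every probe set whose annotation names only one of them, which gave 16 of the 12625 probe sets on the array and 10 of the 8226 genes that have a probe set of their own. The genes were selected from earlier results of the same arrays, in which the difference between the groups at these genes was already known. No p-value is therefore given for that difference, and the count of limma calls among them stands only beside the share over all probe sets.

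Expression was measured in ST486, a Burkitt's lymphoma line, which is a malignant human B cell line. The tested cells carried a lentiviral shRNA against STK38 (labelled Sigma TRCN0000010215) and the control cells a lentiviral non-target shRNA (labelled Sigma SHC002), both for 60 h, with 5 one-colour Affymetrix HG-U95Av2 arrays in each group. STK38, also named NDR1, is a protein kinase, and the series title asks about its part in the transcriptional activity of MYC. The design has a single hairpin against STK38 and a single cell line, and nothing in the labels tells separate cultures from repeat measurements, so the spread between arrays may be technical.

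AP-1 is a dimer of basic leucine zipper (bZIP) proteins. JUN, JUNB and JUND can pair with one another or with FOS, FOSB, FOSL1 and FOSL2, whereas the FOS proteins need a JUN partner to bind DNA, and ATF3 is a bZIP protein that can pair with JUN proteins. Immediate early genes are switched on within minutes of a growth or stress signal without new protein synthesis, and many of their mRNAs are short-lived. FOS, EGR1, JUNB and IER2 are classical examples, while JUND is present in resting cells of many tissues. In B cells these genes respond to antigen receptor signalling through MAP kinases and serum response factor.

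Promoter sequences are shown for JUN, JUND and IER2, the members whose signal differed most between the groups. Each is the 250 bases before the annotated start from RefSeq (GRCh38.p14), read 5′ to 3′ on the gene's strand, at chr1:58784048-58784297 (minus strand) for JUN, chr19:18281623-18281872 (minus strand) for JUND and chr19:13150161-13150410 (plus strand) for IER2. Capitals mark matches to the motifs described after the sequences.
JUN: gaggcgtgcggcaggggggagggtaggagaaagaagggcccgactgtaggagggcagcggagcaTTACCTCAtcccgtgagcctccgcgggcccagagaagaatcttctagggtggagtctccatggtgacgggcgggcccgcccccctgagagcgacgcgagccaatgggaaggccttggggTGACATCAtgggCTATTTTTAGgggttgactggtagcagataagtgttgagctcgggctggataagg
JUND: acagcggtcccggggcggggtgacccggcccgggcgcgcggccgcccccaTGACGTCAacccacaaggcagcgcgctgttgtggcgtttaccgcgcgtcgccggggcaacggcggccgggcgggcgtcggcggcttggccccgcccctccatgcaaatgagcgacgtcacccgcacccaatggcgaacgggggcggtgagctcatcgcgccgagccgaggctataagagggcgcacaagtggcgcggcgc
IER2: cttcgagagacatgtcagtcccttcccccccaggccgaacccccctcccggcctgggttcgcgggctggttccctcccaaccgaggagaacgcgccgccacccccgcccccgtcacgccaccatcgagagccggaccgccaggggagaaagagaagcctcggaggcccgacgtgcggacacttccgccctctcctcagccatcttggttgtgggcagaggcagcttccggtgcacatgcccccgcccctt

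The transcribed regions of these genes lie at chr1:58780791-58784047 (JUN), chr19:18279694-18281622 (JUND) and chr19:13150411-13154911 (IER2) on the same build. The motifs were TGACTCA, the consensus AP-1 element, TGACGTCA, the cAMP response element that JUN and ATF dimers also bind, TGACATCA and TTACCTCA, the variants known from the JUN promoter, the CArG box bound by serum response factor, the EGR1 site GCGNGGGCG and the MEF2 site. Both strands of a window of 250 bases before to 50 after the start were searched, and the matches in these windows do not overlap. RefSeq gave 10 windows for 9 of the genes, with 2 for ATF3. JUN held TTACCTCA, TGACATCA and a MEF2 site, which begin 186, 67 and 55 bases before the start. JUND held TGACGTCA, beginning 200 bases before the start, and IER2 held none of the 7 motifs. Among the other windows EGR1 had a pair of CArG boxes and an EGR1 site, one ATF3 window had TGACATCA, FOSL2 had TGACTCA just after its start, and FOS, FOSB and JUNB had no match. Of all 35116 RefSeq windows, 4.95% held TGACTCA, 1.85% TGACGTCA, 2.61% TGACATCA, 0.715% TTACCTCA, 1.29% a CArG box, 9.43% the EGR1 site and 0.572% a MEF2 site.

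A few facts of the whole series bear on the values. STK38 itself, at its brightest probe set, averaged 2.83 ± 0.21 with the STK38 shRNA and 5.02 ± 0.22 with the non-target shRNA (log2, SD, n = 5 each, limma adjusted p = 5.65e-08). Its other probe sets fell less, by 1.16 (SE 0.22) and 0.82 (SE 0.19). Array medians were 2.12 to 2.25. STK38 shRNA replicate 4 stood apart, with a 75th percentile of 3.54 where the other 9 arrays had 3.91 to 4.02. The array background, the 90th percentile of 23 control probe sets, was 2.36 to 2.66. The brightest STK38 probe set exceeded this background on 4 STK38 shRNA and 5 non-target arrays. Of 11 B cell markers on the array 9 were above it on all 10 arrays, among them MS4A1 and CD79A, and PAX5 was above it on none. Of the 10 tested, CD79A was called higher with the STK38 shRNA by 0.49 (log2), and 5 were called lower, namely MME (-1.60), CD38 (-1.49), TCL1A (-1.12), BCL6 (-0.60) and POU2AF1 (-0.48). Over all 5403 genes tested 15.2% were called higher and 15.8% lower. The BCL6 probe set exceeded background on 3 STK38 shRNA and 5 non-target arrays, and the other BCL6 probe sets did not exceed background on any array. Of markers of other cell types, 6 of 9 monocyte, 6 of 8 T cell, 6 of 7 fibroblast or endothelial, 2 of 5 epithelial and 2 of 2 erythroid markers exceeded it on no array. The epithelial marker KRT8 exceeded it on all 10 arrays, with means of 4.08 with the STK38 shRNA and 3.88 with the non-target shRNA. Among the T cell markers LCK, a kinase that some B cell lymphomas also express, fell by 1.22 on the log2 scale with the STK38 shRNA. CD247, which exceeded background on 1 non-target array alone, was called lower. Of the other 4 types, 4 monocyte, 3 fibroblast or endothelial, 3 epithelial and 0 erythroid markers passed the filter on mean signal and were tested. None of those tested was called by limma, with 0 at an unadjusted p under 0.05. The remaining markers of these types had no test. The part of these markers in the results was not tested. Without STK38 shRNA replicate 4 the differences described below were 1.24 at the brightest JUND probe set, 1.27 at the brighter one of JUN and 0.21 at IER2.

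JUND and JUN had higher signal in the STK38 shRNA cells. JUND was 1.90- to 2.29-fold higher at its 3 probe sets and JUN 2.44-fold higher at its brighter one, where 1 of 5 non-target arrays exceeded background, and no STK38 shRNA array overlapped the controls at either gene. At IER2 and JUNB the groups overlapped, and the FOS family, ATF3 and EGR1 lay near or below the background in both groups. In RNA from whole cultures a change in the make-up of the cells and a change in RNA per cell cannot be told apart.

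JUND is the JUN protein that binds menin, the product of MEN1. Its brightest probe set read 9.65, 9.32, 9.40, 9.20 and 9.46 on the STK38 shRNA arrays and 8.34, 7.95, 8.07, 8.21 and 8.51 on the non-target arrays (log2). The lowest STK38 shRNA array was thus above the highest control. The second probe set read 9.48, 9.31, 9.29, 9.13 and 9.23 on the STK38 shRNA arrays, against 8.41, 7.83, 8.10, 8.05 and 8.35 on the non-target arrays. The groups were again separate. The means at the brightest probe set were 9.41 ± 0.17 with the STK38 shRNA and 8.22 ± 0.22 with the non-target shRNA (SD, n = 5 each), a difference of 1.19 (SE 0.11), or 2.29-fold. At the second the difference was 1.14 (SE 0.10), or 2.20-fold.

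The dimmest JUND probe set read 3.42, 3.39, 3.66, 3.52 and 3.31 with the STK38 shRNA and 2.76, 2.51, 2.53, 2.08 and 2.79 with the non-target shRNA. It exceeded the background on all 5 STK38 shRNA arrays and on 3 of the 5 non-target arrays, and the difference was 0.93 (SE 0.14), or 1.90-fold. The platform annotation ties all 3 probe sets to one JUND sequence record. They therefore measure the same transcript on the same arrays and are not independent of each other.

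JUN encodes c-Jun, the most strongly activating of the JUN proteins. Its brighter probe set read 3.67, 3.67, 3.52, 3.75 and 3.90 on the STK38 shRNA arrays and 2.52, 2.35, 2.30, 2.36 and 2.56 on the non-target arrays. All 5 STK38 shRNA arrays were above background, but only 1 non-target array was, so the control level is close to what the array can measure. The means were 3.70 ± 0.14 with the STK38 shRNA and 2.42 ± 0.11 with the non-target shRNA (SD, n = 5 each), a difference of 1.29 (SE 0.11), or 2.44-fold. The dimmer probe set read 2.40, 2.13, 2.03, 2.29 and 1.89 on the STK38 shRNA arrays, against 1.65, 1.57, 1.57, 1.32 and 1.66 on the non-target arrays. It did not exceed background on any array. Below background no size is given.

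IER2 encodes a small nuclear protein and is a growth factor-induced immediate early gene. Its only probe set read 7.35, 7.25, 7.35, 7.73 and 7.33 with the STK38 shRNA and 6.96, 6.88, 6.97, 7.52 and 7.19 with the non-target shRNA. Replicate 4 was the highest array in each group, and non-target replicate 4 lay above 4 of the 5 STK38 shRNA arrays, so the groups overlapped. The means were 7.40 ± 0.19 with the STK38 shRNA and 7.11 ± 0.26 with the non-target shRNA (SD, n = 5 each), a difference of 0.30 (SE 0.13), or 1.23-fold. Without non-target replicate 4 the difference was 0.40.

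**Figure D1:**
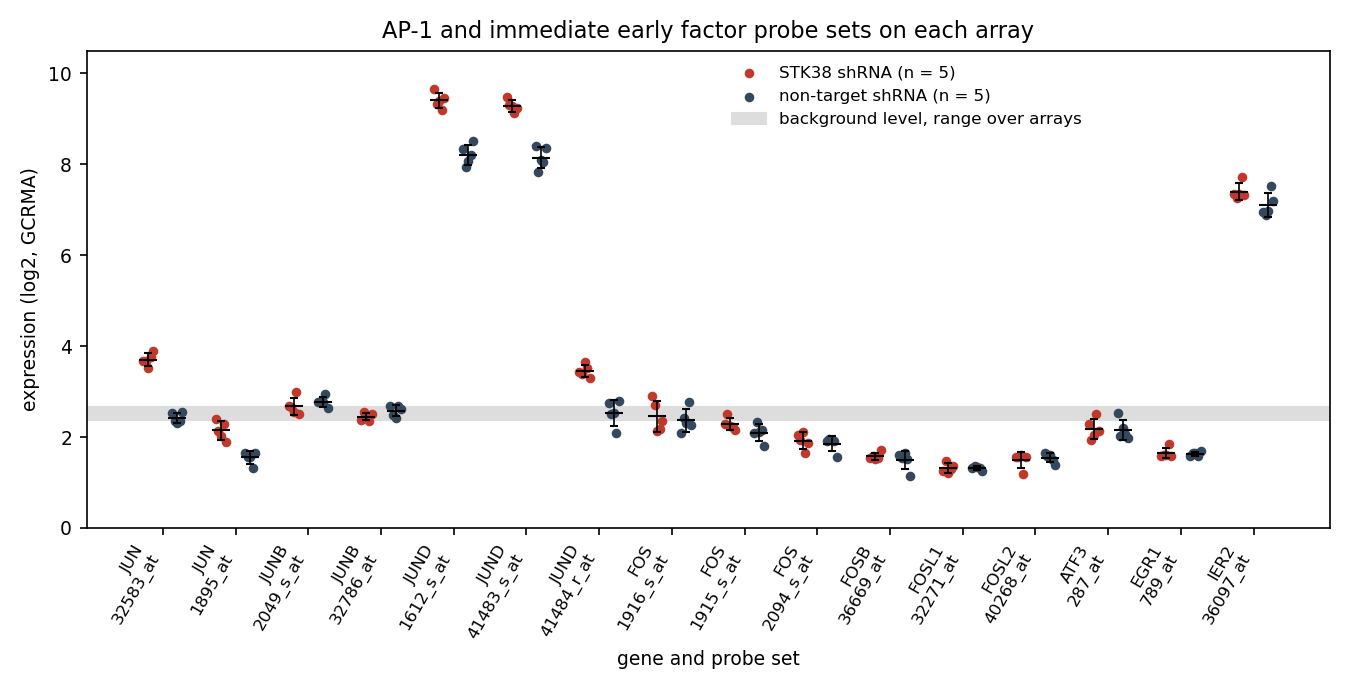
Log2 expression of the 16 probe sets on each of 10 arrays, with STK38 shRNA points left of non-target shRNA points, black marks for the mean ± SD (n = 5) and a grey band for the background range of 2.36 to 2.66. The groups are separate at the 3 JUND and both JUN probe sets, and the FOS, ATF3 and EGR1 points lie in or below the band apart from 3 FOS points.

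JUNB, whose product activates fewer AP-1 sites than c-Jun and can restrain it, has 2 probe sets. The first of its probe sets read 2.69, 2.66, 2.54, 2.99 and 2.50 with the STK38 shRNA and 2.77, 2.77, 2.77, 2.94 and 2.63 with the non-target shRNA, and the second read 2.38, 2.54, 2.46, 2.35 and 2.51 with the STK38 shRNA and 2.69, 2.48, 2.42, 2.69 and 2.62 with the non-target shRNA. The groups overlapped at both. The differences were -0.099 (SE 0.11) and -0.13 (SE 0.092). The first exceeded background on 5 STK38 shRNA and 4 non-target arrays and the second on 3 of 5 in each group, so the signal was close to the limit of measurement.

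The FOS family supplies the partners of JUN proteins in the most stable AP-1 dimers. Its 6 probe sets ran from 1.14 to 2.91 over all arrays, and 2 of them, both of FOS, exceeded background on any array. The brightest FOS probe set read 2.91, 2.70, 2.13, 2.17 and 2.36 with the STK38 shRNA and 2.09, 2.42, 2.31, 2.78 and 2.26 with the non-target shRNA, with 2 STK38 shRNA arrays and 1 non-target array above background. Its difference was 0.083 (SE 0.16). The second read 2.16 to 2.52 with the STK38 shRNA and 1.80 to 2.34 with the non-target shRNA and passed background on 1 STK38 shRNA array and 0 non-target arrays, while the dimmest was above it on 0. FOSB, FOSL1 and FOSL2 each have a single probe set, below background throughout. FOSB averaged 1.58 with the STK38 shRNA and 1.49 with the non-target shRNA, FOSL1 1.32 in both groups, and FOSL2 1.49 with the STK38 shRNA and 1.54 with the non-target shRNA. At this signal a change in the FOS family mRNAs was not detectable.

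ATF3, a stress-induced bZIP factor, read 2.30, 1.93, 2.05, 2.50 and 2.14 with the STK38 shRNA and 2.52, 2.02, 2.21, 2.06 and 1.98 with the non-target shRNA. Its signal passed background on 1 non-target array alone. EGR1, a zinc finger factor that binds GC-rich sites, read 1.58 to 1.85 with a median of 1.61 on the STK38 shRNA arrays and 1.57 to 1.68 with a median of 1.64 on the non-target arrays. It did not exceed background on any array. ATF3 averaged 2.19 ± 0.22 with the STK38 shRNA and 2.16 ± 0.22 with the non-target shRNA (SD, n = 5 each).

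Of the 16 probe sets, 10 from 6 genes passed the filter on mean signal (1.93), and 3 were above background on all 10 arrays, 7 on some and 6 on none. The 4 called by limma were the brighter one of JUN and the 3 of JUND, all higher with the STK38 shRNA. Of all 7535 probe sets tested, 14.1% were called higher and 29.9% were called in either direction. The non-target mean of each called probe set was itself above the filter, so none of them passed it through the STK38 shRNA group alone. At 5 of the 16, the dimmer one of JUN among them, every STK38 shRNA array was above every control, where 5.91% of the 12558 probe sets other than controls did so. Because the genes were chosen with this comparison known, nothing is read from these shares. The median difference was 0.085 over the 16 probe sets, beside 0.015 over all 12558 other than controls. It was 0.24 over the 10 that passed the filter, beside 0.018 over all probe sets tested. JUND enters both member medians at 3 probe sets of the same transcript. By size of the rise, the brighter JUN probe set ranked 33 and the JUND probe sets 45, 60 and 137 among the 7535, and IER2 ranked 1190. These medians and ranks come from the same known comparison, so nothing is read from them either.

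Single arrays of a group differed little at JUN and JUND beside the gap between the groups. The 2 bright JUND probe sets moved together around their group means, with Pearson's r of 0.864 and Spearman's rho of 0.770 over the 10 arrays (two-sided exact permutation within groups, p = 0.00563, adjusted p = 0.0281 for r; p = 0.0286, adjusted p = 0.143 for rho; 5 pairs compared). Without the 2 arrays farthest from the median r was 0.768. The bright and dim JUND probe sets gave r = 0.254 and rho = 0.176 (exact permutation p = 0.574 and 0.674), with r = 0.0248 without the 2 farthest arrays. The brighter with the dimmer JUN probe set gave r = 0.0416 and rho = 0.200 (exact permutation p = 0.919 and 0.636; r = 0.522 without the 2 farthest arrays). The brightest JUND with the brighter JUN probe set gave r = 0.436 and rho = 0.576 (exact permutation p = 0.220 and 0.110; r = 0.218 without them), and the brightest JUND probe set with IER2 gave r = 0.0433 and rho = 0.345 (exact permutation p = 0.922 and 0.389; r = -0.310 without them). After adjustment over the 5 pairs these 4 had p of 0.550 to 0.922 for r and 0.276 to 0.674 for rho. The points share arrays, so a common shift of an array moves both values. The JUND probe sets measure the same transcript, so a positive r between them could be foreseen, and nothing is read from its p. The 5 pairs were drawn from JUND, JUN and IER2 only, and the adjustment does not cover that choice.

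**Figure D2:**
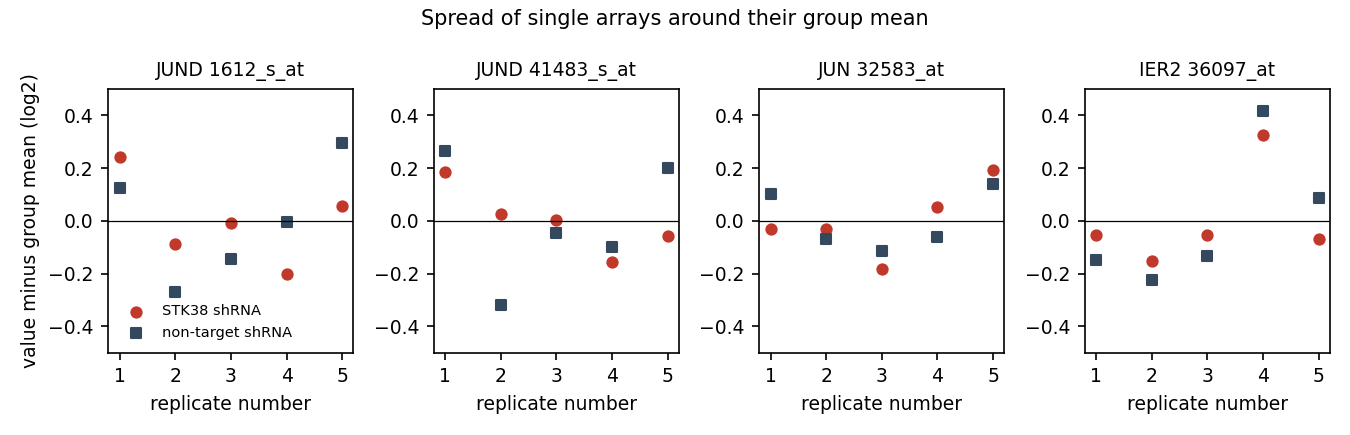
Value minus the mean of its own group (log2) against the replicate number for 4 probe sets, with circles for STK38 shRNA and squares for non-target shRNA arrays (5 each). The 2 JUND panels resemble each other (r = 0.864), and replicate 4 is the highest point of both groups at IER2.

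The genes around these factors were described from lists of related genes, none of which holds a member. Each gene was taken at its brightest tested probe set. Over all 5403 genes tested 15.2% were called higher and 15.8% lower, and the median difference was 0.019. The lists were compiled with earlier results of these data known, so their counts are descriptions beside these shares.

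Of 21 other immediate early genes tested, 2 rose and 6 fell, with a median of 0.025, and 16 of 35 on the array exceeded background on no array. ZFP36L2, which binds AU-rich mRNA and speeds its decay, averaged 6.69 ± 0.39 with the STK38 shRNA and 8.15 ± 0.14 with the non-target shRNA, a fall of 2.76-fold (log2 difference -1.46, SE 0.15, limma adjusted p = 4.68e-06). MYC fell at its brightest probe set to 7.30 ± 0.34, against 8.68 ± 0.25 in the non-target cells (adjusted p = 9.56e-06). KLF10, a TGF-beta-induced zinc finger repressor, dropped by 0.98 (log2, SE 0.19, limma adjusted p = 0.00123) and GEM, a small GTP-binding protein, by 0.71 (SE 0.15, adjusted p = 0.00199), with GEM above background on 1 STK38 shRNA and 5 non-target arrays. The second KLF10 probe set fell less, by 0.33 (limma adjusted p = 0.0176), with 2 STK38 shRNA and 4 non-target arrays above background. The genes that rose were KLF6 and ID3, named for the small count.

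Among upstream transcription factors and kinases, 5 of 35 rose and 4 fell, with a median of -0.032. STAT3, a cytokine-activated factor that binds the FOS and JUNB promoters, averaged 3.58 ± 0.09 with the STK38 shRNA and 2.53 ± 0.22 with the non-target shRNA (difference 1.05, SE 0.12, adjusted p = 1.23e-05). Its signal exceeded the background on 5 STK38 shRNA and 2 non-target arrays, and its second probe set rose by 0.74. MEF2A, one of the factors that bind the MEF2 site found in the JUN promoter, fell by 1.30 (SE 0.21, adjusted p = 0.000298). MAPK6, the atypical kinase ERK3, fell by 0.74 (SE 0.18, adjusted p = 0.00504), and RPS6KA1, an ERK-activated kinase, rose by 0.55 (SE 0.20, adjusted p = 0.0464), a call kept without STK38 shRNA replicate 4 or non-target replicate 4 and lost without any other array (adjusted p up to 0.121). RPS6KA1 exceeded background on 4 STK38 shRNA and 3 non-target arrays. The count of rises was 9 without STK38 shRNA replicate 4 and 3 without STK38 shRNA replicate 1, 2, 3 or 5 or non-target replicate 2 or 3, and the count of falls was 2 without non-target replicate 5.

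**Figure D3:**
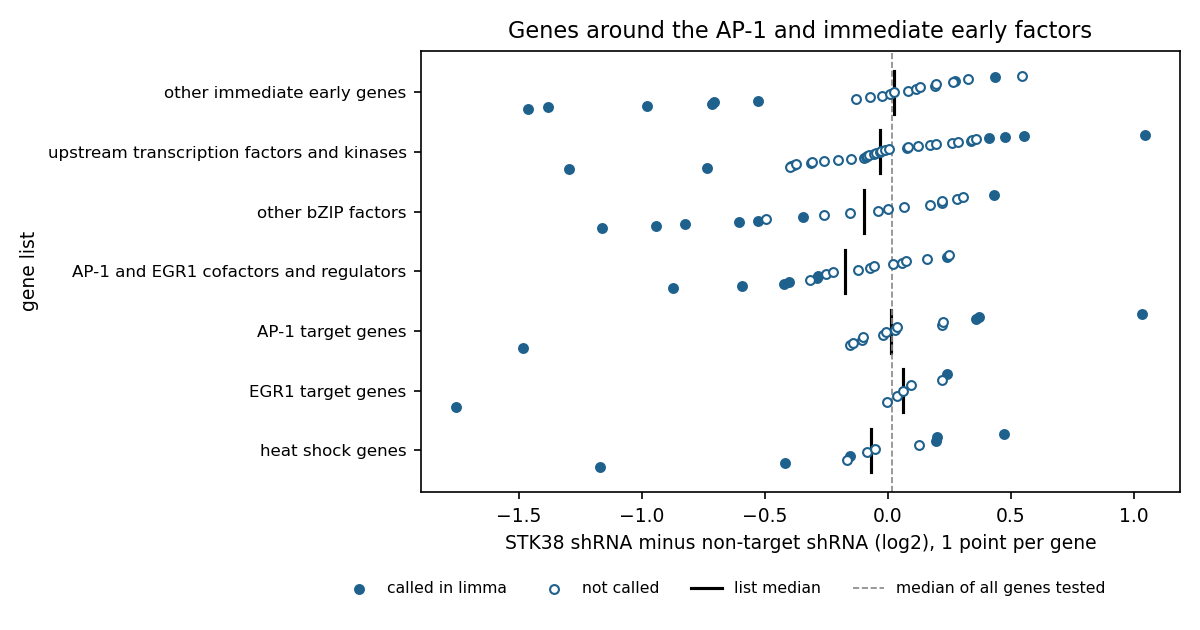
Difference between STK38 shRNA and non-target shRNA (log2) for each tested gene of 7 lists at its brightest probe set, filled where limma called it, with a black bar for each list's median and a dashed line for the median of all 5403 genes (0.019). The largest falls are VEGFA (-1.76), VIM (-1.48) and ZFP36L2 (-1.46), and STAT3 (1.05) and MT1X (1.03) are the largest rises among these lists. MT1X exceeded background on 0 non-target arrays, so its point is a raw difference and not a measured size.

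Of 18 other bZIP factors tested, 1 was called higher and 6 lower, with a median of -0.096. CEBPB, a factor that can pair with AP-1 proteins, averaged 5.74 ± 0.30 with the STK38 shRNA and 6.90 ± 0.25 with the non-target shRNA (difference -1.16, SE 0.15, adjusted p = 3.83e-05). XBP1, which drives the secretory programme, fell by 0.94 (SE 0.077, adjusted p = 4.87e-07), CEBPG by 0.82 (SE 0.13, adjusted p = 0.000292) and ATF4, the amino acid stress factor, by 0.61 (SE 0.083, adjusted p = 6.35e-05). The factor that rose was BATF, a JUN partner in lymphocytes, named for the small count. Without STK38 shRNA replicate 4 the rises numbered 3, and without STK38 shRNA replicate 3 or non-target replicate 3 they numbered 2.

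Of 18 cofactors and regulators of AP-1 and EGR1, 1 rose and 6 fell, with a median of -0.17. ETS1, which binds next to AP-1 at joint elements, exceeded background on 0 STK38 shRNA arrays, against 4 non-target ones, and was at least 1.18-fold lower (adjusted p = 9.94e-06). COPS5, first described as a coactivator of JUN, fell by 0.40 (SE 0.10, adjusted p = 0.00703). NAB1, a corepressor of EGR1, fell by 0.59 (SE 0.15, adjusted p = 0.00646) with 1 STK38 shRNA and 5 non-target arrays above background, and CREBBP, a histone acetyltransferase that JUN and FOS recruit, was called lower (adjusted p = 0.00770) with 0 and 2 above it, so no size is given. MEN1, whose product binds JUND, had a difference of 0.16 and was not called.

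Of 14 AP-1 target genes, 3 rose and 1 fell, with a median of 0.012, and 16 of 25 on the array exceeded background on no array. VIM, the intermediate filament vimentin, averaged 8.54 ± 0.05 with the STK38 shRNA and 10.02 ± 0.13 with the non-target shRNA, a fall of 2.80-fold (adjusted p = 1.25e-09). MT1X, a metallothionein, read 3.32, 3.22, 3.32, 2.27 and 3.40 on the STK38 shRNA arrays and 2.01, 1.94, 2.12, 2.33 and 1.95 on the non-target arrays, and was at least 1.53-fold higher (adjusted p = 0.000579). Replicate 4 of the STK38 shRNA arrays stood at the control level, and metallothionein probe sets can bind close relatives. NQO1, an antioxidant enzyme, rose by 0.37 (SE 0.10, adjusted p = 0.0119), above background on 4 STK38 shRNA arrays and 1 non-target array. MT2A rose by 0.36 (SE 0.13, adjusted p = 0.0419), a call lost without STK38 shRNA replicate 1, 2 or 5 or non-target replicate 1, 2, 3 or 4 (adjusted p up to 0.108).

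Of 7 EGR1 target genes, 1 rose and 1 fell, with a median of 0.062. VEGFA, the angiogenic growth factor, averaged 6.14 ± 0.98 with the STK38 shRNA and 7.90 ± 0.29 with the non-target shRNA (difference -1.76, SE 0.35, adjusted p = 0.00129), and its other probe sets fell by 1.41 and 1.26. STK38 shRNA replicate 4 read 4.43 there. NAB2, which belongs to the cofactor list as well, was called higher (adjusted p = 0.0457) with 1 STK38 shRNA array and 0 non-target arrays above background, so no size is given. That call was lost without STK38 shRNA replicate 1, 2 or 3 or non-target replicate 1, 3, 4 or 5 (adjusted p up to 0.122). TGFB1 (0.22, adjusted p = 0.214) was not called, and ICAM1 was below background on all arrays.

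Heat shock genes, which respond to stress as several of the members do, were mixed, with 3 of 10 higher, 3 lower and a median of -0.069. HSP90AB1 dropped by 1.17 (log2, SE 0.074, limma adjusted p = 4.48e-08) and HSPA4 by 0.42 (SE 0.11, adjusted p = 0.00781). DNAJB1, an HSP40 co-chaperone, rose by 0.47 (SE 0.15, adjusted p = 0.0226), a call lost without STK38 shRNA replicate 2 or 3 or non-target replicate 1 or 5 (adjusted p up to 0.0627), and HSP90AA1 rose by 0.20 (SE 0.056, adjusted p = 0.0122).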

How the data were processed

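The study hybridised biotin-labelled material made from the total RNA of 10 samples to 1-colour Affymetrix HG-U95Av2 arrays. The deposited values are on a log2 scale, 1 per probe set and array, and were made by the authors with GCRMA and affy, per the submitters' processing notes, which give no version. The scale is read from the values. GCRMA pulls dim probe sets towards a floor, which shrinks differences at weak genes. The number of arrays limits the precision.

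Groups follow the labels and replicate numbers the titles. After 67 control probe sets were removed, 12558 were left, of which 10943 name 1 gene, 545 several and 1070 none. Symbols were matched by Entrez identifier to RefSeq (GRCh38.p14), with 0 changed. Probe sets with a mean under the 40th percentile (1.93) were not tested. The other 7535 were fitted with limma 3.58.1 in R 4.3.3 (lmFit without covariates, which leaves 8 residual degrees of freedom, and eBayes with a mean trend) and adjusted by Benjamini-Hochberg at 0.05, and the procedure was tested on simulated data. Background was the 90th percentile of 23 mouse, yeast and reverse-strand control probe sets of each array. "At least" folds use, for the dim group, each array's background where its signal is below that. They hold for this background only, and the limma p beside them belongs to the raw difference. The highest control probe set read 4.19 to 4.83 over the arrays. Every MT1X and ETS1 array was below that level, so it would give no bound. Figures were drawn with matplotlib 3.10.9.

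The members, lists and tests were chosen with earlier results of these data known. Named were all members, STK38, MYC and up to 4 genes per list, called ones first, then by size, and called markers of other cell types; MEN1, KLF6, ID3 and BATF were added after their values were seen. Alternatives covered scaling, weights, variance model, filter, threshold, probe set choice, background, a replicate block and left-out arrays. No protein table was used here, so protein features were not analysed.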

Additional observations from a re-analysis of the deposited data

Results flagged for a closer look

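Of the 106 groups of 5 arrays checked (53 probe sets in 2 groups), 12 held an array whose gap to its nearest neighbour was above 0.71 of the group's range. Chance flags about 1 group in 20. STK38 shRNA replicate 4 was that array in 7 of them, and its 75th percentile was 3.54 where the other arrays had 3.91 or more.

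Among the members, IER2 read 7.73 on STK38 shRNA replicate 4 where the other 4 arrays of the group had 7.25 to 7.35, and without it the difference at IER2 was 0.21. EGR1 read 1.85 on that array, against 1.58 to 1.61 on the others, and FOSL2 read 1.19, against 1.55 to 1.60, both below background. Among non-target arrays, the dimmer JUN probe set read 1.32 on replicate 4 where the others had 1.57 to 1.66, and the dimmest FOS probe set read 1.57 on replicate 5 where the others had 1.91 to 1.96, both below background.

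Among the other genes, STK38 shRNA replicate 4 read 2.46 at STK38 (others 2.88 to 2.95), 5.24 at CEBPB (others 5.76 to 5.97), 2.27 at MT1X (others 3.22 to 3.40) and 4.43 at VEGFA (others 6.35 to 6.77). STK38 shRNA replicate 3 read 3.76 at TGFB1 (others 3.27 to 3.38). Non-target replicate 2 read 2.58 at GEM (others 2.84 to 2.88), and non-target replicate 5 read 5.59 at CEBPG (others 6.05 to 6.19).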

How the results depend on the processing

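Of 699 values recomputed, 617 stayed within the spread or within 1.5 times the count, 82 moved and 0 were classed as reversed. Small differences did change sign within the spread. This happened at the brightest and dimmest FOS probe sets, FOSB, FOSL1, FOSL2, ATF3 and EGR1. The brightest FOS probe set, for example, ran from -0.032 to 0.18. The count of 4 called members ran from 4 to 5 with single arrays left out (5 without non-target replicate 4, where IER2 was added) and was 5 with a replicate block, where IER2 was added, and 5 with no filter or a filter at the 20th percentile, where the dimmer JUN probe set was added. The same 4 were called under every alternative run at 0.05, and 4 were at 0.01. Leaving out single arrays gave 1.13 to 1.27 at the brightest JUND probe set, 1.24 to 1.33 at the brighter JUN probe set, 0.21 to 0.40 at IER2 and -2.24 to -2.10 at STK38. The labels do not say whether replicate numbers pair the arrays. The 5 same-numbered pairs correlated at -0.21 to 0.19, and 1 of 5 STK38 shRNA arrays correlated best with its own number. So few pairs cannot exclude a weak pairing. With the replicate block 3 upstream genes, 0 cofactors and 0 EGR1 targets were called higher.

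The small counts of the lists moved with the setting, by construction at the stricter threshold and otherwise for causes not tested. Among upstream genes the 5 called higher became 3 with arrays centred on the median, 9 with array weights, 3 with no filter or a filter at the 20th percentile and 2 at 0.01, and the 4 called lower became 2 at 0.01. Leaving out arrays gave 3 to 9 and 2 to 5. The 1 bZIP factor called higher became 3 with arrays centred on the 75th percentile, 2 with quantile normalization, 3 with array weights and 0 at 0.01 (1 to 3 with arrays left out). The 1 cofactor called higher was NAB2 in the main fit. That count became 0 with either centring, without the trend, with no filter or a filter at the 20th or 60th percentile and at 0.01. It was 0 to 1 with arrays left out, and 2 with array weights or the most variable probe sets. The count stayed at 1 with quantile normalization and without STK38 shRNA replicate 3, although NAB2 was called in neither (limma adjusted p = 0.101 without that array). Another cofactor was then the 1 called. The 6 cofactors called lower became 3 with arrays centred on the 75th percentile. The 1 EGR1 target called higher was also NAB2 in the main fit. The count of such targets became 0 with either centring, quantile normalization, without the trend, with any of the other filters and at 0.01 (0 to 1 with arrays left out). Array weights gave 4 other immediate early genes called higher in place of 2. AP-1 targets called higher became 1 at 0.01, and heat shock genes called higher became 1 with arrays centred on the 75th percentile or without the trend and 0 at 0.01. No scaling moved the median of all probe sets by over 0.1.

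Signal over background limits the dim members. Without the reverse-strand ACTB and GAPDH controls the brighter JUN and both JUNB probe sets were above background on all 10 arrays, the 2 brighter FOS probe sets on 8 each and ATF3 on 7. Against the highest control probe set JUN, JUNB, FOS and ATF3 were above it on 0. The correlation of the JUN probe sets ran from -0.12 to 0.53 with arrays left out.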
